A study of Mus musculus with 4 samples.

Results

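The Sprouty genes (*Spry1*, *Spry2* and *Spry4*), the Spred genes (*Spred1*, *Spred2* and *Spred3*) and *Errfi1* encode intracellular inhibitors of receptor tyrosine kinase signals. They were taken from the deposited arrays by gene name, with every non-control probe that the files assign to them, which gave 7 of 29676 gene names and 9 of 39429 probes. *Spred1* had 3 probes, and each of the other genes had 1. The study asked how astrocytes respond to oxygen–glucose deprivation (OGD), a culture model of hypoxic–ischemic injury. Expression was read in astrocyte-enriched cultures (AECs), which are mixed glial cultures of cerebral cortex from newborn ICR mice of postnatal day 1 to 3, with the meninges removed and the microglia depleted with PLX3397, which blocks the CSF1 receptor that microglia need to survive. One group was untreated (*n* = 2), and the other was kept in DMEM without glucose under hypoxia for 15 h (*n* = 2). Both groups had received PLX3397, the cultures were prepared from several pups, and oligodendrocytes remained in them according to the study.

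Growth factor receptors such as those for EGF and FGF signal through the GTPase Ras to the kinases Raf, MEK and ERK. Sprouty and Spred proteins act at the plasma membrane and hold back the step from the receptor to Raf, and Spred proteins do so by bringing the Ras inhibitor neurofibromin to Ras. *Errfi1*, also called Mig6, binds the kinase domain of the EGF receptor and blocks it directly. Several of these genes are themselves induced by ERK activity, so that the inhibitors form a negative feedback loop. In astrocytes, EGF and FGF receptors are known for their part in proliferation and in the reaction to injury.

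After OGD, *Errfi1* rose 11.2-fold and the *Spred1* probe for transcript variant 2 rose 9.18-fold, and both rose under every scaling tried, by 4.59-fold and 3.76-fold when scaled on spiked-in RNA and by 5.15-fold for the *Spred1* probe with normexp background correction. *Spry2* and *Spred2* were 2.97-fold and 2.26-fold higher when each array was scaled on its own 75th percentile, but neither was called with scaling on spiked-in control RNA. *Spry1*, *Spred3* and one of the other *Spred1* probes were 1.47-fold, 1.44-fold and 1.38-fold higher on the first scale and were called lower on the second. *Spry4*, which was dim, and the brightest *Spred1* probe were not called on the first scale and were called lower on the second.

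The choice of scale mattered because the 75th percentile of the processed signal changed by −1.37 on the log2 scale after OGD, whereas 9 probes for spiked-in control RNA changed by −0.085 as a mean, with single probes between −0.75 and 0.28. The median log2 fold change of all tested probes was 0.18 on the 75th-percentile scale and −1.11 on the spiked-in scale. The labels give the same mass of total RNA as labeled for every sample, so the values compare equal amounts of RNA, and the cause of the shift was not tested. For a single gene, fewer cells that express it and less of its RNA per cell cannot be told apart in such bulk samples. Changes are given below on the 75th-percentile scale stated in the methods of the study, with the other beside it. Ranks among all probes, and differences between genes within an array, do not depend on the choice between these 2 scales. They do move with background correction: with normexp the median log2 fold change of all tested probes was 0.55, and 62.8% were called higher and 19% lower. *Errfi1* then ranked above 99.7% of probes and the *Spred1* variant 2 probe above 98.9%, whereas *Spry1*, *Spred3* and both variant 1 probes of *Spred1* lay between 27.8% and 55.5%. Every astrocyte marker (10 of 10) was marked as well above background on each of the 4 arrays. The same held for 6 of 8 microglia markers, with none below background throughout, and their summed signal relative to the 75th percentile was 2.33 and 2.04 in untreated cultures against 6.74 and 6.52 after OGD. Most of that difference came from 1 gene, *Cd68*, which encodes a lysosomal protein of phagocytes, at 0.542 and 0.561 against 4.85 and 4.87. Without *Cd68* the markers summed to 1.79 and 1.48 against 1.90 and 1.66. On the 75th-percentile scale 3 of 7 tested microglia markers were called higher, namely *Cd68*, *Aif1* (log2 fold change 1.03) and *Csf1r* (1.14). On that scale 1 was called lower (*Tmem119*, −0.88), where 37.1% of all tested genes were called higher and 27.8% lower. The astrocyte sum went from 168 and 149 to 228 and 233, and the oligodendrocyte lineage sum from 29.0 and 29.2 to 26.1 and 25.3. On the spiked-in scale 0 astrocyte markers were called higher and 8 of 10 lower, with a median log2 fold change of −0.62, and 1 of 7 tested microglia markers was called higher (*Cd68*) and 4 lower. The part of other cells in the results below was not tested.

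Of the 9 probes, 7 were called higher after OGD and 0 lower on the 75th-percentile scale (limma, adjusted *p* under 0.05), where 37.9% of all 28258 tested probes were called higher and 27.1% lower. On the spiked-in scale 2 were called higher and 5 lower, where 4.47% of all probes were called higher and 81.9% lower. Each of the 9 probes was marked as well above background on each of the 4 arrays. The changes differed between the genes, which are described below by where they act.

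**Figure D1:**
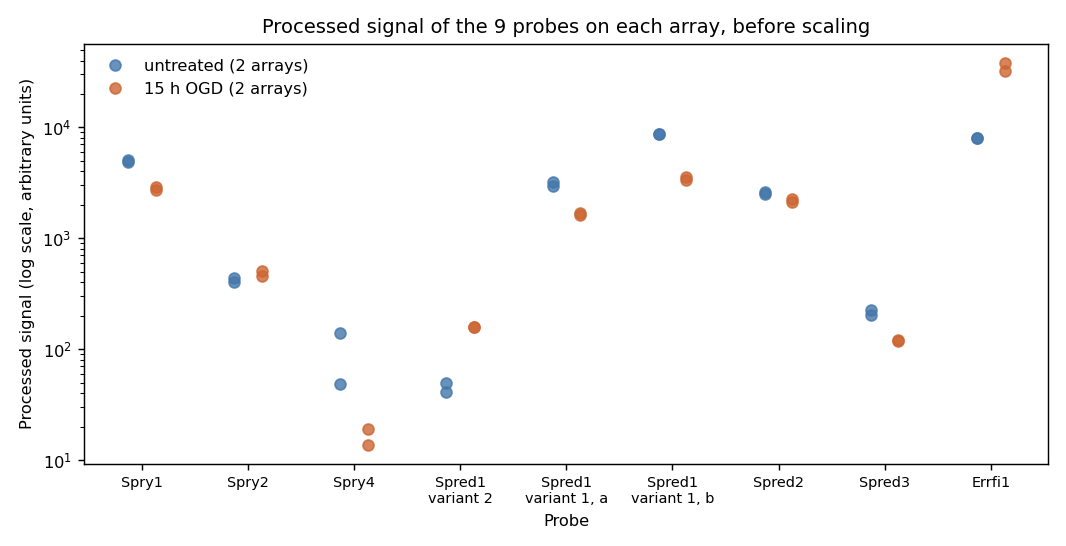
Processed signal of each of the 9 probes on each array (log axis, arbitrary units, not scaled between arrays), with 2 untreated arrays and 2 arrays after 15 h of OGD as points. Before any scaling, *Errfi1*, the *Spred1* variant 2 probe and *Spry2* were brighter on both OGD arrays, and the other 6 probes were dimmer on both; heights of different probes cannot be compared.

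*Errfi1* acts on the receptor itself. Its probe lies on the plus strand at chr4:150242886-150242945 (mm9), and its first 30 of 60 bases are printed here with those of the *Spred1* probes, because the strongest changes were read with them and with the *Spred1* variant 2 probe.
Errfi1, A_55_P2016105: ctccgcactgtgtgtacagtattggacaaa
Spred1 variant 2, A_55_P2090045: caacctcttcattgtttaatgttctggtct
Spred1 variant 1, A_55_P2079425: gtgatatgctccagcaaacaggttaaaaat
Spred1 variant 1, A_55_P2079430: cattaatattttcagtttgtttaaccactt

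The processed signal of *Errfi1* was 8027 and 8054 in the untreated cultures, and 37954 and 31963 after OGD. Both OGD arrays were far above both untreated arrays before any scaling. Relative to the 75th percentile, the log2 signal went from 1.90 ± 0.010 to 5.39 ± 0.040 (SD, *n* = 2 each). The change was 3.49 on the log2 scale (SE 0.077, 95% interval 3.27 to 3.70, limma adjusted *p* = 0.000729), and 99.3% of tested probes had a lower one. On the spiked-in scale it was 2.20 (95% interval 1.92 to 2.48, limma adjusted *p* = 8.33e-05). The study itself lists *Errfi1* among the genes that rose on these arrays, so its rise here is not independent evidence. *Errfi1* was called higher in all 16 alternative settings, with log2 fold changes between 2.20 and 3.52.

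Among 20992 other genes, those whose centered values over the 4 arrays lay closest to *Errfi1* were *Gdf15* (Euclidean distance 0.058), *Hk2* (0.089) and *Vegfa* (0.091). *Gdf15* encodes a stress-induced cytokine, *Hk2* a hexokinase and *Vegfa* the vascular endothelial growth factor. Their log2 fold changes were 3.53, 3.53 and 3.56, respectively. With 4 arrays in 2 groups, this likeness mostly restates a change of the same size.

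RefSeq promoter windows (GRCm38.p6) were taken for 6 of the 7 genes, and *Spry4* was left out of this search. The 250 bases before each start were searched on both strands for TGACGTCA (the cAMP response element), ACGTG and GCGTG (core letters of hypoxia response elements), TGANTCA (the AP-1 site) and CCGGAA (an ETS core). *Errfi1* had 2 windows. The one at chr4:150854820-150855069 on the plus strand is printed because it held TGACGTCA, which occurred in 1.55% of 32851 windows of this length; capitals mark matches on either strand.
Errfi1 promoter: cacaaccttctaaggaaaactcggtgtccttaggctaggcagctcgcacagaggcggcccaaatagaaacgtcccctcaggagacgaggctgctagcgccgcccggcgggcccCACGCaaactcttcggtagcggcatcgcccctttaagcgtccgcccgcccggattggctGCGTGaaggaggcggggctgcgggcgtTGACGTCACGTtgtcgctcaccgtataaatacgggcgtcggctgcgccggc
The last run of capitals holds TGACGTCA and, overlapping its end, ACGTG read on the opposite strand. ACGTG occurred in 16.6% of all windows. This window also held 2 matches to GCGTG, which occurred in 28.2% of all windows. The other *Errfi1* window, at chr4:150853546-150853795, held none of these letters. Of the other genes, *Spred1* had 1 ACGTG, *Spred2* had 1 GCGTG and *Spry1* had 2 GCGTG, and none of the 5 patterns was found in the windows of *Spry2* and *Spred3*. TGANTCA and CCGGAA, found in 6.75% and 12.03% of all windows, were in none of the windows of these 6 genes. These matches describe letters and not binding.

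The Sprouty genes act between the receptor and Ras or Raf. *Spry1* encodes an inhibitor best known for restraining FGF and GDNF signals, and its probe lies at chr3:37543403-37543462. Its processed signal was 4827 and 5123 in untreated cultures, and 2916 and 2715 after OGD. The signal was thus lower on both OGD arrays, but it fell less than the 75th percentile of the arrays did. On the 75th-percentile scale the log2 fold change of *Spry1* was 0.55 (SE 0.084, 95% interval 0.31 to 0.79, limma adjusted *p* = 0.00781), whereas on the spiked-in scale it was −0.74 (limma adjusted *p* = 0.00242). It was higher than that of 67.7% of tested probes, but with normexp than that of only 48.9%. Leaving out untreated array 1 or 2 ended the call on the 75th-percentile scale, at log2 fold changes of 0.52 and 0.58. Fewer of all tested probes were called higher in these fits too.

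*Spry2*, whose product binds the ubiquitin ligase Cbl, was read at chr14:106291845-106291904 on the minus strand. The processed signal was 400.5 and 435 in untreated cultures, and 454 and 504 after OGD. Even unscaled, both OGD arrays were above both untreated arrays, by 0.20 as a mean on the log2 scale. On the 75th-percentile scale the log2 fold change of *Spry2* was 1.57 (SE 0.15, 95% interval 1.15 to 1.99, limma adjusted *p* = 0.00254), and on the spiked-in scale it was 0.28 (95% interval −0.11 to 0.67, limma adjusted *p* = 0.134). Of all tested probes, 94.6% had a lower change.

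*Spry4*, another inhibitor of Ras activation, was read by a single probe of low GC content (20%) at chr18:38745923-38745982. The processed signal was 141 and 48.4 in untreated cultures, and 18.9 and 13.8 after OGD. The groups did not overlap, but the untreated arrays differed by 1.56 on the scaled log2 values, more than they did for 99.9% of tested probes. Without background subtraction, the mean signal of the *Spry4* spot was 55.8 and 50.8 on the OGD arrays, where the 95th percentile of 153 negative control spots was 36.7 and 37.2. For *Spry4* the log2 fold change was −0.98 (SE 0.58, 95% interval −2.61 to 0.64, limma adjusted *p* = 0.206), a range too wide to give a direction. With normexp background correction it was 0.30 (limma adjusted *p* = 0.323), on the spiked-in scale −2.27 (limma adjusted *p* = 0.00903), and without untreated array 2 it was −1.76 (limma adjusted *p* = 0.0229).

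**Figure D2:**
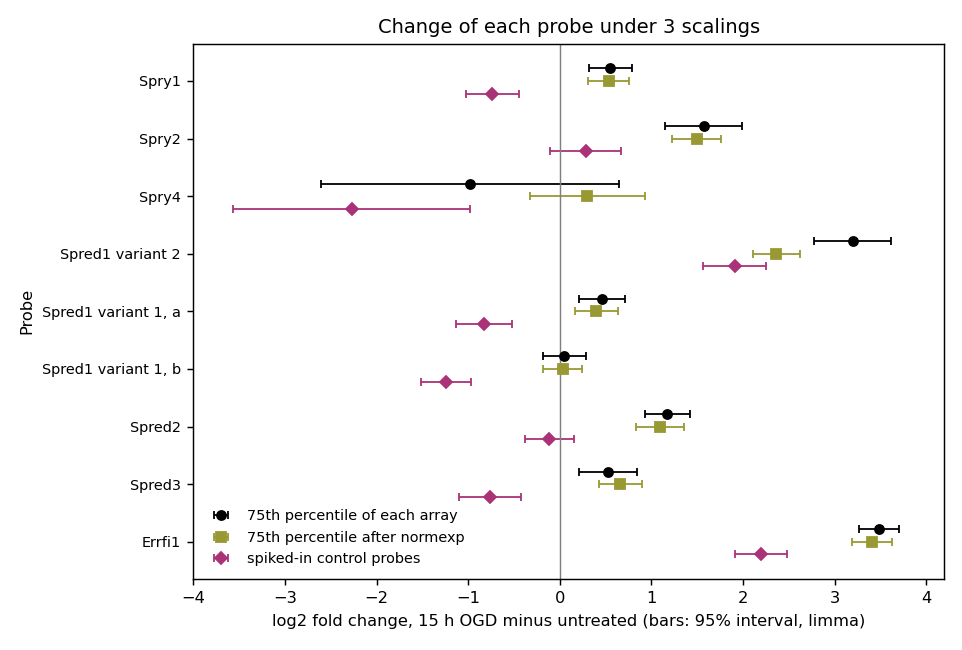
The log2 fold change of each probe (OGD minus untreated, 2 arrays per group) with its 95% interval from limma, scaled on the 75th percentile of each array, on the 75th percentile after normexp background correction, or on spiked-in control probes. *Errfi1* and the *Spred1* variant 2 probe lie above 0 on all 3 scales, whereas *Spry1*, *Spred3* and *Spred1* variant 1, a (A_55_P2079425) lie above 0 on the percentile scales and below 0 on the spiked-in scale; b is A_55_P2079430.

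The Spred genes encode relatives of Sprouty that carry an EVH1 domain, by which Spred1 binds neurofibromin. The 3 probes of *Spred1* gave different readings. The files assign the probe A_55_P2090045, at chr2:116998491-116998550, to transcript variant 2 and the probes A_55_P2079425, at chr2:117004952-117005011, and A_55_P2079430, at chr2:117005906-117005965, to variant 1. All 3 lie on the plus strand, and the variant 2 probe starts 6461 and 7415 bases upstream of the others. Their sequences are printed above with that of *Errfi1*.

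The variant 2 probe of *Spred1* had a processed signal of 49.9 and 40.9 in untreated cultures, and 160 and 160 after OGD. Both OGD arrays were brighter before any scaling, although the probe was dim. Its mean signal without background subtraction was 92.3 and 84.3 on the untreated arrays, against a 95th percentile of negative control spots of 44.1 and 41.7. Between the groups it changed by 3.20 on the log2 scale (SE 0.15, 95% interval 2.78 to 3.62, limma adjusted *p* = 0.000876), above that of 99.1% of tested probes. It was 2.36 with normexp background correction and 1.91 on the spiked-in scale (limma adjusted *p* = 0.000179), and the call held in all 16 alternative settings.

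The brightest *Spred1* probe, A_55_P2079430, gave 8735 and 8683 in untreated cultures, and 3583 and 3376 after OGD. Its scaled log2 values were 2.03 and 2.00 untreated against 2.01 and 2.12 after OGD, and they overlapped between the groups. Its log2 fold change was 0.049 (95% interval −0.19 to 0.29, limma adjusted *p* = 0.635), and −1.24 on the spiked-in scale (limma adjusted *p* = 0.000311). The probe A_55_P2079425, which starts 954 bases before it, gave 2988 and 3212 in untreated cultures, and 1692 and 1604 after OGD. Its signal was lower on both OGD arrays, with a log2 fold change of 0.46 on the 75th-percentile scale (SE 0.090, limma adjusted *p* = 0.0150) and −0.83 on the spiked-in scale (limma adjusted *p* = 0.00181). Without untreated array 1 or 2 the first of these calls was lost, at 0.42 and 0.50, where fewer of all tested probes were called higher too. That call was also lost with the *t*-test of the methods (adjusted *p* = 0.0506) and with a 75th percentile restricted to probes well above background (limma adjusted *p* = 0.0519).

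The probes of *Spred1* were then compared with each other within each array, where scaling cancels; this comparison was chosen after their values had been seen. The log2 signal of the variant 2 probe minus that of A_55_P2079430 was −7.45 and −7.73 in untreated cultures, and −4.48 and −4.40 after OGD. The difference moved by 3.15, without overlap between the groups, and by 2.33 with normexp background correction. Against A_55_P2079425 it moved by 2.74, or by 1.96 with normexp. Between the 2 variant 1 probes, A_55_P2079425 gained 0.41 on A_55_P2079430. In each case the exact two-sided permutation *p* was 0.333, the smallest that 2 against 2 arrays allow. The mean over the 3 probes gave *Spred1* a log2 fold change of 1.24 (limma adjusted *p* = 0.00177), which none of the probes showed by itself.

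**Figure D3:**
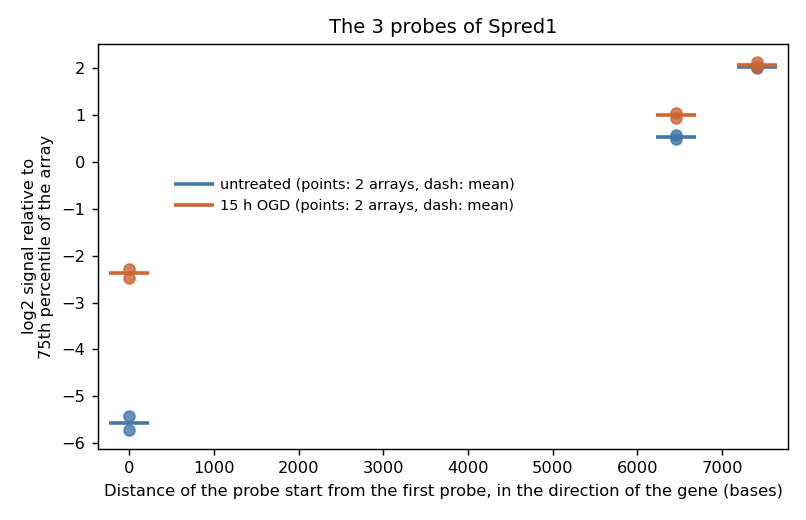
The log2 signal of the 3 *Spred1* probes relative to the 75th percentile of each array, against the distance of the probe start from that of the variant 2 probe in bases, with points for the 2 arrays of each group and dashes for group means. The groups are 3.20 apart at the variant 2 probe (distance 0), 0.46 apart at 6461 bases and 0.049 apart at 7415 bases; on the spiked-in scale the latter differences are −0.83 and −1.24.

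*Spred2*, which also inhibits Ras–ERK signaling, was read at chr11:19922416-19922475. The processed signal was 2590 and 2480 in untreated cultures, and 2280 and 2143 after OGD. The unscaled signal of *Spred2* was slightly lower on both OGD arrays, by 0.20 on the log2 scale. On the 75th-percentile scale the log2 fold change was 1.18 (SE 0.088, 95% interval 0.93 to 1.42, limma adjusted *p* = 0.00166), above that of 89.9% of tested probes, and on the spiked-in scale it was −0.11 (95% interval −0.38 to 0.16, limma adjusted *p* = 0.343).

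*Spred3*, the remaining Spred gene, was read at chr7:29944517-29944576 on the minus strand. The processed signal was 205 and 227 in untreated cultures, and 119 and 120.2 after OGD. Both OGD arrays were dimmer, with an unscaled difference of −0.85 on the log2 scale. The log2 fold change of *Spred3* was 0.52 on the 75th-percentile scale (SE 0.11, 95% interval 0.21 to 0.84, limma adjusted *p* = 0.0196) and −0.76 on the spiked-in scale (limma adjusted *p* = 0.00369). *Spred3* lost its call on the 75th-percentile scale without untreated array 1 or 2, at 0.46 and 0.59, where fewer of all tested probes were called higher too. That call was also lost with the *t*-test of the methods (adjusted *p* = 0.0828) and with the restricted 75th percentile (limma adjusted *p* = 0.0572).

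To compare the genes with each other independently of the scale, the log2 difference between each of the 21 pairs was taken within each array, at the brightest probe of each gene. *Errfi1* rose against each of the other 6 genes, by 1.92 against *Spry2*, 2.31 against *Spred2*, 2.94 against *Spry1*, 2.96 against *Spred3*, 3.44 against *Spred1* and 4.47 against *Spry4*. Within the Sprouty genes, *Spry2* gained 1.02 on *Spry1*. Within the Spred genes, *Spred2* gained 0.65 on *Spred3*. It gained 1.13 on *Spred1* at the brightest *Spred1* probe, but the order turned at the variant 2 probe of *Spred1* (log2 fold change 3.20 against 1.18 for *Spred2*) and with the mean over its probes (1.24). The difference between *Spry1* and *Spred3* was 4.56 and 4.50 in untreated cultures against 4.61 and 4.50 after OGD, a shift of 0.026 and the only one whose groups overlapped on this scale. With normexp that pair did not overlap, whereas 3 pairs with *Spry4* did (against *Spry1*, *Spred1* and *Spred3*). For the other 20 pairs the groups did not overlap without normexp, and with all tested genes in place of the second gene of a pair the same held for 63.9% (*Spry4*) to 99.6% (*Errfi1*) of genes, but the exact two-sided permutation *p* was 0.333 (adjusted over the 21 pairs, 0.35), the smallest this design allows, so that no pair could pass the threshold. In order of change the genes ran *Errfi1*, *Spry2*, *Spred2*, *Spry1*, *Spred3*, *Spred1* and *Spry4* at these probes, where *Spry1* and *Spred3* did not differ beyond their spread and the place of *Spred1* depended on its probe. With normexp *Spred3* stood before *Spry1* and *Spry4* before *Spred1*, so *Spry4* has no settled place.

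**Figure D4:**
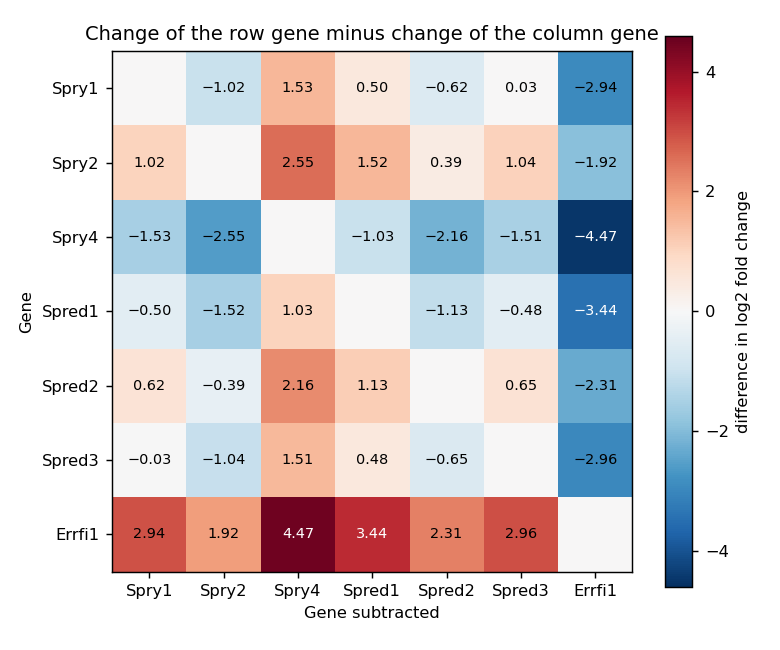
Difference in log2 fold change between each pair of genes (row gene minus column gene, OGD minus untreated, brightest probe per gene, 2 arrays per group), computed within arrays so that no scaling enters. The *Errfi1* row is positive throughout, from 1.92 against *Spry2* to 4.47 against *Spry4*, and *Spry1* and *Spred3* differ by 0.026.

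The genes around these inhibitors were counted in lists, at the brightest probe of each gene. Over all 21063 genes tested, 37.1% were called higher and 27.8% lower on the 75th-percentile scale, with a median log2 fold change of 0.16. On the spiked-in scale 3.84% were called higher and 83.3% lower, with a median of −1.13. Among the receptor tyrosine kinases, 4 of 15 tested genes rose and 8 fell, with a median of −0.40, against 1 that rose and 12 that fell on the spiked-in scale. *Met*, the receptor of hepatocyte growth factor, rose by 2.60, and *Pdgfrb*, a receptor of platelet-derived growth factor, fell by 2.42 on the log2 scale (limma adjusted *p* = 0.00131 and 0.000752). The other receptors that rose, named after their values were seen, were the EGF receptor family members *Egfr* (0.82) and *Erbb4* (0.30) and the FGF receptor *Fgfr2* (1.55), and on the spiked-in scale *Egfr* and *Erbb4* were called lower, at −0.47 and −0.98, and *Fgfr2* was not called, at 0.26. Of the same families, and named likewise, *Erbb2* (−1.15), *Fgfr3* (−0.54) and *Fgfr4* (−1.05) fell, and *Fgfr1* was not called, at 0.22, but was called lower on the spiked-in scale, at −1.07. Without untreated array 1 or 2, fewer receptors were called lower, as were fewer of all tested probes, and the list median was −0.44 and −0.36. *Erbb3* was on the array but did not pass the filter on dim probes. *Flt1*, named likewise and listed by the study among its upregulated genes, was not called at its brightest probe, at 0.60 (limma adjusted *p* = 0.0546). On the spiked-in scale *Flt1* was called lower at that probe, at −0.69, and any other probe of it was not read here.

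Of 18 genes of the cascade from adaptors to ERK, 7 rose, 4 fell and 7 were not called on the 75th-percentile scale, with a median log2 fold change of 0.021. On the spiked-in scale all 18 were called lower, with a median of −1.27. The largest rise was that of *Mapk3*, which encodes ERK1 (log2 fold change 0.81), and the largest fall that of *Sos1*, a Ras exchange factor (−1.69), which was at 0.042 after normexp background correction. The other genes that fell were the adaptor *Shc1* (−1.46), the scaffold *Ksr1* (−0.94, but 0.30 after normexp) and the kinase *Araf* (−0.32), which were named after their values were seen. Without untreated array 1 or 2, fewer genes of this list were called in either direction, as were fewer of all tested probes. The list median was then 0.021 and 0.033.

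Of 17 other inhibitors of receptor signals, 5 rose and 9 fell on the 75th-percentile scale, with a median log2 fold change of −0.54, and on the spiked-in scale 1 rose and 15 fell. *Rasal2*, which switches off Ras, rose by 2.46 (limma adjusted *p* = 0.00123), and *Il17rd*, also called Sef, an inhibitor of FGF signals, fell by 2.48 on the log2 scale (limma adjusted *p* = 0.00146). The others that rose, named after their values were seen, were *Dok1* (1.06), *Sh2b3* (0.88), *Nf1* (0.64), which encodes neurofibromin, and *Cbl* (0.52), and on the spiked-in scale *Sh2b3*, *Nf1* and *Cbl* were called lower and *Dok1* was not called. Without untreated array 1, fewer genes of this list were called higher, as were fewer of all tested probes, and the list median was −0.56. *Spry3*, the remaining Sprouty gene, was counted among those that fell, but its probe was not well above background on either OGD array and its direction reversed with normexp, so that no fold is given.

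Of 12 genes whose products bind, modify or degrade Sprouty and Spred proteins, 11 rose, 0 fell and only *Siah1a* was not called, with a median log2 fold change of 0.65, whereas on the spiked-in scale 3 rose and 8 fell, with a median of −0.64. *Cav1*, the coat protein of caveolae, had the largest rise (log2 fold change 2.25, limma adjusted *p* = 0.000729). *Nf1* and *Cbl* were in this list and the one before. Leaving out untreated array 1 or 2 left fewer genes of this list called higher, as it did over all tested probes, with a list median of 0.63 and 0.69. Of 13 transcripts commonly read as output of ERK, 7 rose and 3 fell, with a median of 1.91, and on the spiked-in scale 7 rose and 6 fell, with a median of 0.62. The largest rise was that of *Dusp4*, a phosphatase of ERK in the nucleus (log2 fold change 3.90, limma adjusted *p* = 0.000729), and the largest fall that of the ETS factor *Etv4* (−1.36, limma adjusted *p* = 0.00139). The other genes of this list that fell, named after their values were seen, were the cytoplasmic ERK phosphatase *Dusp6* (−1.17) and the ETS factor *Etv1* (−0.87).

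**Figure D5:**
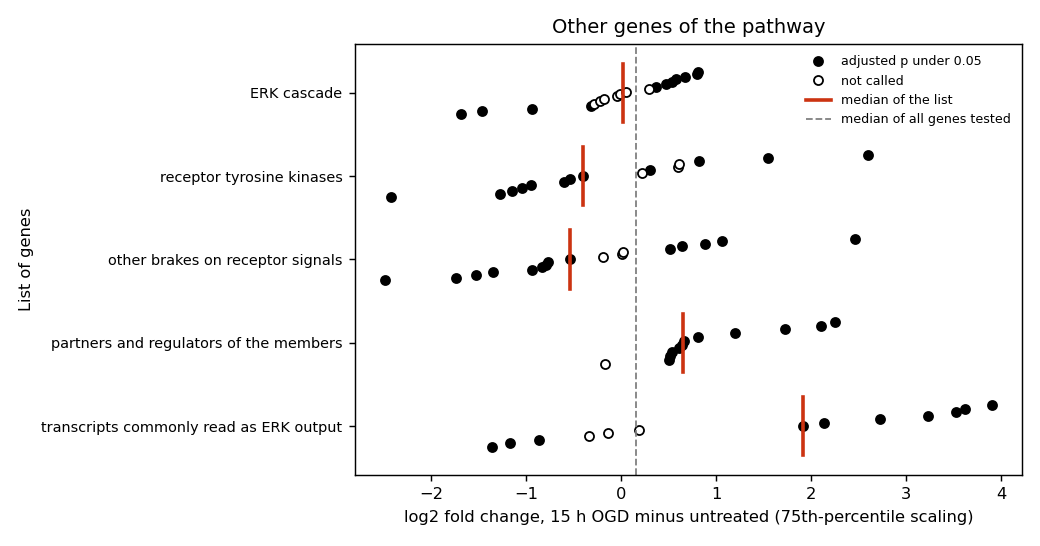
The log2 fold change (OGD minus untreated, 75th-percentile scale, brightest probe per gene) of the genes of 5 lists, with filled points for those past an adjusted *p* of 0.05, a bar at each list's median and a dashed line at the median of all tested genes. List medians run from −0.54 for the other inhibitors to 1.91 for the ERK output transcripts, around an overall median of 0.16; on the spiked-in scale they run from −1.83 to 0.62 around −1.13.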

How the data were processed

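Total RNA of 2 untreated and 2 OGD-treated AECs was amplified, labeled with Cy3 and hybridized by the authors to 1-color Agilent mouse arrays, all on 1 slide and in 1 scan. The authors deposited an intensity per spot, the processed signal of Feature Extraction (version 11.5.1.1 per the submitters' processing notes): the software had removed background, and arrays had not been scaled to each other. Probe positions (mm9) and gene names are those of the file headers and columns. The series table holds the same intensity (largest relative difference 0).

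Here, control and outlier spots were left out, log2 of the processed signal was taken, spots of a probe were averaged, and each array's 75th percentile was subtracted. A probe entered the test if both arrays of either group were marked well above background there (28258 probes). OGD was tested against untreated with limma 3.58.1 (lmFit, eBayes; R 4.3.3), two-sided, with Benjamini–Hochberg adjustment over all probes kept and a threshold of 0.05. Where 1 value stands for a gene, it is that of its brightest probe. Pairs of genes were compared with an exact permutation test over arrays. Figures were drawn with matplotlib 3.10.9 in Python 3.11.15. The steps were tested on simulated data. The labels do not say whether the 2 samples of a group came from separate cultures, whereas the methods state that wells held independent cultures. If they did not, the *p*-values measure technical spread only. The number of arrays limits the precision.

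The genes described, the lists and the tests were chosen with earlier results of these data known. Named are all 7 genes, for each list the gene with the largest rise and the largest fall among those called, and the 3 genes with a symbol that are closest to *Errfi1*, excluding names that are only accession numbers. Further genes of the lists were named after their values were seen, as where 5 or fewer members moved in a direction. Other settings tried were the *t*-test of the methods, a limma prior that is robust and follows intensity, a block for replicate number, normexp background correction (offset 50), quantile normalization, scaling on the median, on spiked-in controls or on a 75th percentile restricted to probes well above background, no filter on dim probes, a filter requiring all 4 arrays, outlier spots left in, the authors' series table, each gene's probes averaged, and each array left out.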

Additional observations from a re-analysis of the deposited data

How the results depend on the processing

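The number of probes called higher was 7 on the 75th-percentile scale and 2 on the spiked-in scale, where 37.9% and 4.47% of all tested probes were. Without untreated replicate 1 or 2, *Spry1*, *Spred3* and the *Spred1* probe A_55_P2079425 lost their calls, and fewer of all tested probes were called higher too. The log2 fold changes were then 0.52 and 0.58 for *Spry1*, 0.46 and 0.59 for *Spred3*, and 0.42 and 0.50 for A_55_P2079425. The number called higher was 5 with the methods' *t*-test and 5 with the restricted 75th percentile (taken only over probes well above background). *Spred3* and A_55_P2079425 lost their calls in both settings, where 26.1% and 31.2% of all tested probes were called higher. With an array left out, the lone array of its group was taken to vary like those of the other group. The number called lower was 0 against 5 on the spiked-in scale, where 27.1% and 81.9% of all tested probes were. Without untreated replicate 2 the log2 fold change of *Spry4* moved to −1.76. On the spiked-in scale the log2 fold change turned to −0.74 for *Spry1*, −0.83 for A_55_P2079425 and −1.24 for A_55_P2079430 of *Spred1*, −0.11 for *Spred2* and −0.76 for *Spred3*. That of A_55_P2079430 was also −0.16 with quantile normalization and −0.099 with the restricted 75th percentile, and ranged from −0.0043 to 0.10 when 1 array was left out. With normexp, *Spry4* turned to 0.30, the change of *Spry1* minus *Spred3* to −0.13 and that of *Spry4* minus *Spred1* to 0.27, and the overlapping pairs went from *Spry1* with *Spred3* alone to 3 others, all with *Spry4*. The causes of these turns were not tested. The median log2 fold change of all tested probes, 0.18 on the 75th-percentile scale, was 0.55 with normexp, 0.012 with quantile normalization, 0.030 with the restricted 75th percentile and −1.11 on the spiked-in scale. *Errfi1* and the *Spred1* variant 2 probe kept direction and call in all 16 alternatives. Samples with the same replicate number did not deviate together (correlation of replicate 1 minus 2 between the groups −0.057 across probes), so the numbers were not taken to pair the samples. With the replicate number as a block 7 probes were called higher and 0 lower, where 35.1% of all tested probes were called higher and 25.8% lower. The adjusted *p* of *Errfi1* was 0.00636 in that fit (limma). Of the lists, on the spiked-in scale the cascade had 0 genes higher and 18 lower (7 and 4 on the 75th-percentile scale), the receptors 1 higher (4), the other inhibitors 1 higher and 15 lower (5 and 9), the partners 3 higher and 8 lower (11 and 0) and the ERK output transcripts 6 lower (3). Genes lower numbered 8 with quantile normalization and 7 with the restricted 75th percentile for the cascade, 5 and 5 for the ERK output transcripts, and 4 with the methods' *t*-test for the receptors (8). With 1 array left out, genes higher ranged from 2 to 8 for the cascade, from 3 to 4 for the other inhibitors and from 6 to 10 for the partners, and genes lower from 2 to 4 for the cascade and from 4 to 8 for the receptors. With 2 arrays per group and dim signals for *Spry4* and the *Spred1* variant 2 probe, sizes of change for these probes depend on the background correction.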
